A study of Mus musculus with 12 samples.

Results

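The 10 genes described here encode the fast-fibre forms of the sarcomere's light chains, troponins, myosin binding protein C and Z-disc proteins, together with 2 kinases of the light chain kinase family: Mylpf, Myl1, Tnnc2, Tnni2, Tnnt3, Actn3, Mybpc2, Myoz1, Mylk2 and Mylk4. They were taken by gene symbol, and all 10 were present among the 10187 genes of the triceps brachii RNA-Seq table. Transcripts were profiled in 12 male C57/BL6 mice in 4 groups of 3 mice, which combine an activity level with a myostatin genotype. IW and IM mice were inactive and AW and AM mice active, with W for wild-type and M for myostatin-reduced. Myostatin-reduced mice carried a floxed exon 3 of the myostatin gene Mstn that Cre recombinase removed, and wild-type mice had an unfloxed Mstn. Every mouse, controls included, ate chow with 0.025% tamoxifen for 6 weeks from 4 months of age. Active mice then lived alone with a running wheel for 12 weeks from 6 months of age, whereas inactive mice had no wheel, so single housing and running cannot be told apart. The promoter that drives Cre was not given in the sources used here, and whole muscle was extracted.

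Skeletal muscle fibres contract when calcium binds troponin C, which moves troponin I and troponin T on the thin filament and lets myosin heads reach actin. Fast and slow fibres build this machinery from separate genes, so each fast troponin or light chain has a slow counterpart. Calcium also activates the skeletal light chain kinase, which phosphorylates the regulatory light chain on the myosin neck and raises the force of submaximal contractions. The triceps brachii of the mouse is a mostly fast muscle.

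Values are normalized reads per gene, scaled to equal trimmed means and not divided by length. Table totals were 927958 to 1080139 normalized reads per mouse, and the spacing of the lowest values gave an estimate of 9023561 to 12184086 reads. Each member was backed by 9725 to 250178 estimated reads per mouse, which gives a counting error of at most 1.01%, against a spread between mice of a group of 1.34% to 24.3% (CV). Mstn itself, which checks the labels, was lower in myostatin-reduced mice by a log2 change of -2.66 (adjusted p = 1.29e-06, limma). Markers of the labelled tissue were abundant: Acta1, Ckm, Des, Mb, Tnnt3 and Myh4 together gave 127886 to 204177 normalized reads per mouse. No other marker list (endothelium, fibroblast, smooth muscle and pericyte, macrophage, nerve, adipocyte, red cell, satellite cell) reached more than 0.0606% of a total, although only 1 of 5 red cell genes (Alas2) and 1 of 3 satellite cell genes (Cdh15) were in the table, so those lists were hardly checked. Labels do not say more about the mice than their group, so p-values measure the spread between these animals, and in whole muscle fewer fibres of a type and less RNA per fibre cannot be told apart.

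Promoter sequences of the members that moved most, or that parted from each other, are shown first. They cover 250 bases before the annotated start, on the coding strand from 5′ to 3′, and come from RefSeq on build GRCm38.p6, a later build than the one used for counting. Entries matched 5 of the 10 members (Myl1, Tnnc2, Mybpc2, Mylpf and Mylk4), and capitals mark E-boxes (CANNTG, read alike on both strands), the letters bound by myogenic basic helix-loop-helix factors.
Mylk4 (chr13:32783965-32784214, minus strand), the kinase gene with the widest change under running: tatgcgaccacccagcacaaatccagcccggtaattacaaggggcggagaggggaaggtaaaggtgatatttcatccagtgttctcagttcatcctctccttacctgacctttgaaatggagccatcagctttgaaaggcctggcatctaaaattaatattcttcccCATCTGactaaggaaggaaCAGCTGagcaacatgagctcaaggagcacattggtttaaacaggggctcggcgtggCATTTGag
Mybpc2 (chr7:44524670-44524919, minus strand), which changed with both factors: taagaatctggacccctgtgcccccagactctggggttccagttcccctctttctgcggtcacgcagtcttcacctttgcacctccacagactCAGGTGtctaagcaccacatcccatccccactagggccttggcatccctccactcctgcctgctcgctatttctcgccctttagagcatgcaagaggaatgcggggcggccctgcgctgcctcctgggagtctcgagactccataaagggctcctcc
Mylpf (chr7:127211358-127211607, plus strand), the regulatory light chain: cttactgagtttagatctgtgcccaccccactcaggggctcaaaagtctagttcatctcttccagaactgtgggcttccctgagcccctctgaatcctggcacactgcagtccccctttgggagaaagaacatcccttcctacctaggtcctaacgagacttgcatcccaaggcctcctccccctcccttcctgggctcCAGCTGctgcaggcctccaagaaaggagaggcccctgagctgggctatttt
Myl1 (chr1:66945057-66945306, minus strand), the essential light chain, whose ratio to Mylpf separated the genotypes: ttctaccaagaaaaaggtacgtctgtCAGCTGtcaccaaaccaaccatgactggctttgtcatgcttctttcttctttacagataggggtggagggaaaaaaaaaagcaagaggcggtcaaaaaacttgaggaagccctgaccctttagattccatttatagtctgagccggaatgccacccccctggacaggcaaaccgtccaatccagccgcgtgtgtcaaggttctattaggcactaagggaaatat
The Mylk4 window held 3 E-boxes, at 83, 64 and 8 bases before the start, and a MEF2-type site on either strand at 103 bases. Single E-boxes lay 157 bases before Mybpc2, 51 before Mylpf and 224 before Myl1, and Tnnc2 had 2. An E-box is common, being present in 66.2% of 32851 promoters of this length, whereas a MEF2-type site was present in 2.92%. TATAAA, searched on both strands, occurred before Myl1 alone of the 5 (12.4% of promoters) and there on the strand opposite to the one printed, and a CArG box before none (1.47%). Binding was not measured in these mice, and the matches are letters only.

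Per kilobase of exon, 2 thin-filament genes led the members. Tnnt3, fast troponin T, averaged 15060 ± 1360 normalized reads per kilobase (SD, n = 12 mice), and Tnnc2, fast troponin C, averaged 13806 ± 1458. Mylpf followed at 7877 ± 1082 and Tnni2, fast troponin I, at 6021 ± 476. Each of these 4 genes exceeded the next in all 12 mice, although only the gaps between Tnnc2 and Mylpf and between Tnni2 and Actn3 were free of overlap across mice. Actn3, the fast alpha-actinin of the Z-disc, averaged 3199 ± 882 and Myl1 3029 ± 502, and Actn3 was above Myl1 in 6 of the 12 mice, so their order was not separable from the spread. Mybpc2, the fast myosin binding protein C of the thick filament, averaged 2431 ± 634, and Myoz1, a Z-disc protein that binds calcineurin and alpha-actinin, averaged 2060 ± 234. The kinase genes stood apart at the bottom, with Mylk2 at 407 ± 78.6 and Mylk4 at 330 ± 93.6, and Mylk2 above Mylk4 in 10 of 12 mice. Exon lengths were taken over all annotated isoforms, which lowers the per-kilobase value of genes with long or rarely used exons.

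As a share of all normalized reads, the 10 members made up 7.52% ± 0.534 (SD, n = 3) in IW, 8.30% ± 0.211 in IM, 7.06% ± 0.515 in AW and 7.54% ± 0.750 in AM mice. IM mice were the most alike, with a CV of 1.34% to 9.26% over the members, compared with 4.04% to 19.0% in IW, 6.73% to 20.8% in AW and 11.1% to 24.3% in AM mice.

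**Figure D1:**
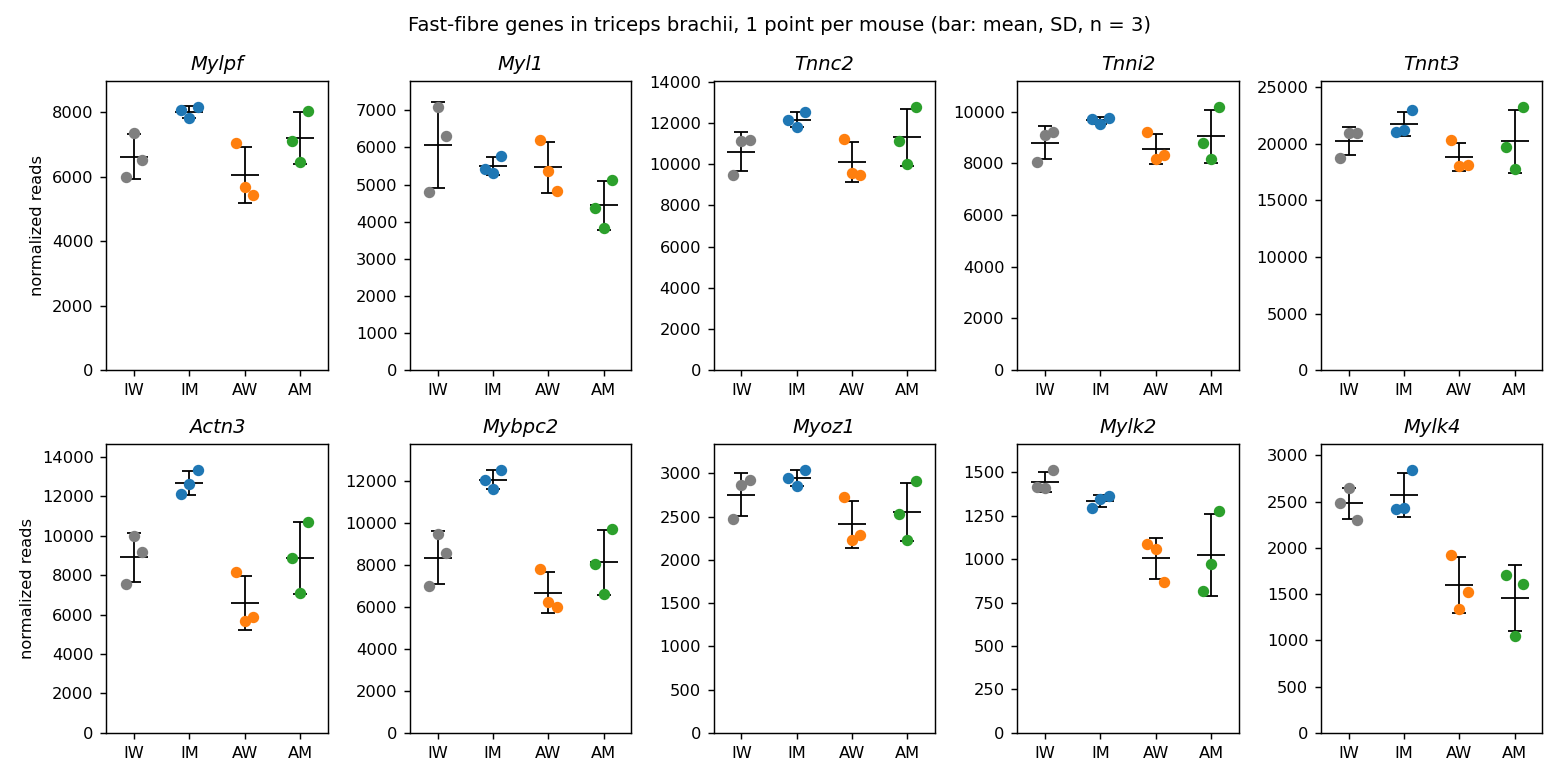
Normalized reads (y axis, from 0) of the 10 members in each mouse of the IW, IM, AW and AM groups, with 1 point per mouse and a bar for the mean and SD of 3 mice. The 6 active mice lie below the inactive mice of the same genotype for Mylk2 and Mylk4, and the 3 IM mice lie above the other groups for Actn3 and Mybpc2.

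The main effect of activity compared the 6 active with the 6 inactive mice across both genotypes. Of the 10 members, 4 were lower in active mice (Mylk4, Actn3, Mylk2 and Mybpc2), none was higher, and 6 did not pass the test. Over all 7247 genes tested, 14.5% were called, 6.51% lower and 7.99% higher (limma on log2 of the value plus 1, Benjamini-Hochberg adjusted p under 0.05, two-sided). The members are abundant genes. With a filter at a mean of 50 normalized reads, 30.6% of 2556 genes were called, 17.1% lower and 13.5% higher. The median log2 change was -0.22 over the members and -0.02 over all genes tested. Both kinases were among the 4, while the regulatory light chain gene Mylpf and the 3 troponin genes were not.

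Mylk4, a kinase of the myosin light chain kinase family, measured 2486, 2647 and 2304 normalized reads in IW mice 1 to 3 and 2423, 2434 and 2840 in IM mice. In AW mice it measured 1924, 1340 and 1526, and in AM mice 1708, 1050 and 1606. All 6 active mice were thus below all 6 inactive mice. The log2 change was -0.75 (SE 0.121, adjusted p = 0.00264, limma), a level 40.4% lower. Mylk2, the calcium-dependent skeletal light chain kinase, measured 1414, 1411 and 1514 in IW and 1296, 1347 and 1361 in IM mice. It measured 1086, 1058 and 871 in AW mice and 817, 970 and 1280 in AM mice. Again every active mouse was below every inactive one, AM mouse 3 by a narrow margin, and the log2 change was -0.47 (SE 0.0949, adjusted p = 0.00773, limma), or 27.8% lower. Mylk2 and Mylk4 were the only 2 members whose active and inactive mice did not overlap within either genotype, which 2.97% of all genes tested showed in this direction. Both calls held under every processing alternative and without any single mouse.

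Actn3 measured 7542, 9992 and 9184 normalized reads in IW, 12113, 12602 and 13326 in IM, 8150, 5690 and 5889 in AW and 8844, 7068 and 10699 in AM mice. Inactive values were higher in IM than in IW mice, although that contrast did not pass (adjusted p = 0.136, limma). All AM mice were below all IM mice, but AW mouse 1 lay within the IW range. Its log2 change with activity was -0.49 (SE 0.120, adjusted p = 0.0186, limma), or 28.8% lower. Mybpc2 had nearly the same profile, at 6967, 9452 and 8541 in IW, 12040, 11588 and 12501 in IM, 7772, 6211 and 5992 in AW and 8015, 6621 and 9711 in AM mice. Its log2 change with activity was -0.45 (SE 0.109, adjusted p = 0.0167, limma), or 26.9% lower. The call on Actn3 was lost without IW mouse 2, AW mouse 2 or AW mouse 3 (adjusted p up to 0.0552), and that on Mybpc2 without AW mouse 3 (0.0513) and after quantile normalization (log2 change -0.17, adjusted p = 0.0936). That setting replaces each value by a mean shared by its rank. Mybpc2 ranked 12 to 17 of all genes in the 12 mice, so its value there follows rank alone.

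The remaining members had smaller differences, none of which passed the test. The log2 change was -0.23 for Myl1 (adjusted p = 0.164, limma), -0.20 for Myoz1 (0.103), -0.15 for Mylpf (0.267), -0.11 for Tnnt3 (0.408), -0.09 for Tnnc2 (0.480) and -0.07 for Tnni2 (0.545). Their 95% intervals bound how large a difference could be: for Tnni2 the interval ran from -0.23 to 0.09, and for Tnnc2 from -0.27 to 0.09. Tnnt3, the highest of the 3 troponin genes, measured 18788, 20944 and 20970 in IW, 21028, 21200 and 22981 in IM, 20299, 18076 and 18128 in AW and 19699, 17736 and 23226 in AM mice. The lowest and the highest of the 12 values were both in AM mice. Rescaling the libraries to equal totals shifted the median of all genes for activity by 0.10 on the log2 scale, and with it the share of called genes that were higher from 55.1% to 90.3%. That scaling left the same 4 members called, all lower, and turned the uncalled differences of Tnnc2 and Tnni2 to 0.02 and 0.04.

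**Figure D2:**
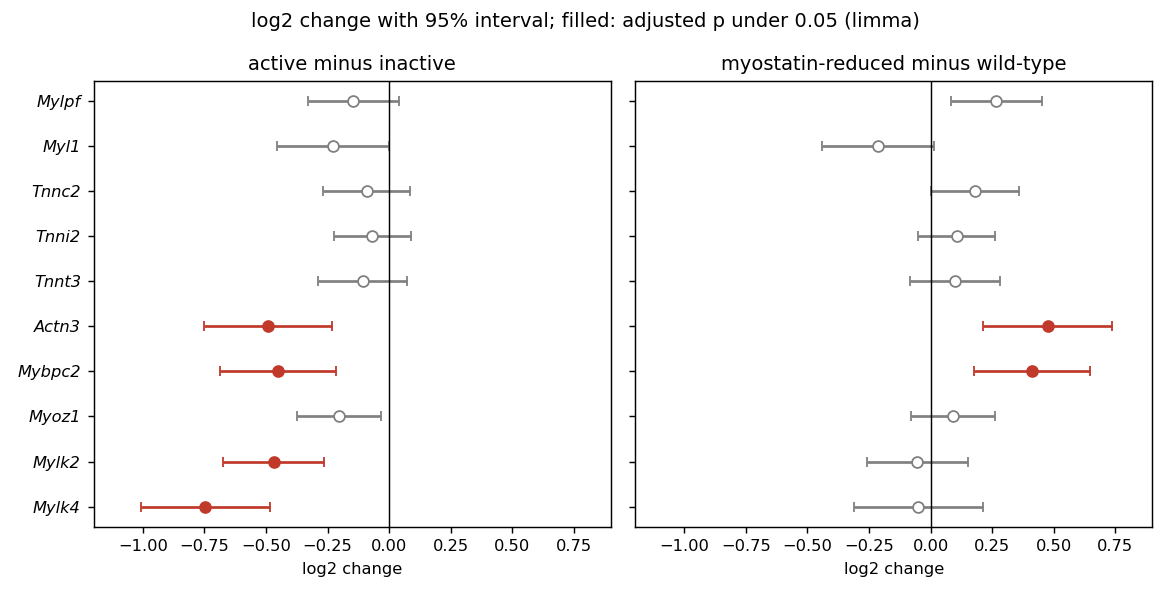
log2 change (x axis) of each member with its 95% interval, for active minus inactive mice on the left and for myostatin-reduced minus wild-type mice on the right, with filled points for an adjusted p under 0.05. Filled points are Actn3, Mybpc2, Mylk2 and Mylk4 (-0.49, -0.45, -0.47 and -0.75) for activity, and Actn3 and Mybpc2 (0.47 and 0.41) for genotype.

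Within each genotype, the contrasts rest on 3 mice against 3. In wild-type mice no member passed the test (0 of 10, against 0.0276% of all genes called, all higher, and 0% lower). At an unadjusted p under 0.05 there were 3 members, Actn3, Mylk2 and Mylk4, against 14.7% of genes. Mylk2 had a log2 change of -0.53 (unadjusted p = 0.00176, adjusted p = 0.113, limma), and Mylk4 of -0.65 (unadjusted p = 0.00237, adjusted p = 0.113). All AW mice were nevertheless below all IW mice for these 2 genes alone, a separation in this direction seen in 8.38% of genes tested. Mylk4 was called here when AW mouse 1 was left out (adjusted p = 0.0399). In myostatin-reduced mice, 2 of 10 members were lower with running, against 2.53% of all genes (9.04% with a filter at a mean of 50): Mylk4 by -0.85 (adjusted p = 0.0141) and Mybpc2 by -0.59 (adjusted p = 0.0365). Actn3 (-0.53, adjusted p = 0.0709) and Mylk2 (-0.41, adjusted p = 0.0784) did not pass. Under the other settings the value of Actn3 ran from -0.54 to -0.20. With replicate number as a block, Mylk4 alone was called, and Mybpc2 was lost (adjusted p = 0.0510). After quantile normalization Mybpc2 was also lost (log2 change -0.23, adjusted p = 0.129) and Mylk2 was called (-0.51, adjusted p = 0.0287). With the slow-fibre score as a covariate, Mybpc2 was kept at -0.32 (adjusted p = 0.0444) and Mylk4 was lost (-0.65, adjusted p = 0.0544). Actn3 was called with a filter at a mean of 50 (adjusted p = 0.0434), with sample weights (0.0387) and without AW mouse 1 (0.0378). Without IM mouse 3 or AM mouse 2 neither gene was called, and without AM mouse 3 all 4 were. Mybpc2 alone was lost without IW mouse 3, IM mouse 1, IM mouse 2 or AW mouse 2. In these mice 5 of 10 members had every active value below every inactive value (Myl1, Actn3, Mybpc2, Mylk2 and Mylk4), against 15.2% of genes tested.

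The activity-by-genotype interaction asked whether running acted differently in the genotypes. No member passed, nor did any of the 7247 genes (0% called by limma, 4.1% at an unadjusted p under 0.05, none of them a member). Interaction estimates ran from -0.27 for Mybpc2 (95% interval -0.74 to 0.20) to 0.12 for Mylk2 (-0.29 to 0.53), with adjusted p-values from 0.890 to 0.992. These intervals are wide compared with the main effects, and the counts of calls in the separate genotypes are therefore not shown to differ.

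The main effect of myostatin genotype compared the 6 myostatin-reduced with the 6 wild-type mice. Of the 10 members, 2 were higher in myostatin-reduced mice, Actn3 and Mybpc2, and none was lower, against 3.57% of all genes called higher and 2.21% lower. With a filter at a mean of 50 these shares were 5.99% and 4.66%, and after rescaling to equal totals 2.44% and 6.03%. The median log2 change of the members was 0.10, against -0.005 over all genes tested. Actn3 had a log2 change of 0.47 (SE 0.120, adjusted p = 0.0392, limma), a level 38.9% higher, and Mybpc2 of 0.41 (SE 0.109, adjusted p = 0.0452), or 33.0% higher. Both calls stood close to the threshold, and both were lost in 9 of the 12 fits that left out 1 mouse (the exceptions were IW mouse 2, AW mouse 1 and AM mouse 2), with adjusted p-values up to 0.102 and 0.120. Both were also lost with replicate number as a block (0.0556 and 0.0677), and that of Mybpc2 without a filter on low values (0.0558) and after quantile normalization (log2 change 0.15, adjusted p = 0.179). Quantile normalization also shrank the values of Actn3, to 0.26 for genotype (adjusted p = 0.0400) and -0.26 for activity (0.0234), both still called. Actn3 ranked 10 to 18 in the 12 mice, so these values follow rank alone and are no independent check of its calls.

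Mylpf measured 5981, 7358 and 6522 normalized reads in IW, 8067, 7808 and 8149 in IM, 7050, 5691 and 5429 in AW and 7103, 6449 and 8042 in AM mice. Its log2 change with genotype was 0.27 (adjusted p = 0.0894, limma), short of the threshold, with IM mice above all IW mice and AM mice overlapping AW mice. Tnnc2 (0.18, adjusted p = 0.215), Tnni2 (0.11, 0.421), Tnnt3 (0.10, 0.525) and Myoz1 (0.09, 0.545) had smaller values. The kinases showed little difference, at -0.05 for Mylk2 (95% interval -0.26 to 0.15) and -0.05 for Mylk4 (-0.31 to 0.21). After quantile normalization the values of Tnnc2 and Tnni2 changed sign, to -0.02 and -0.12, where they follow rank alone (8 to 11 and 11 to 15).

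The genotype contrast looked different at the separate activity levels, though the interaction was not called. Among inactive mice, all 3 IM values exceeded all 3 IW values for 6 of 10 members (Mylpf, Tnnc2, Tnni2, Tnnt3, Actn3 and Mybpc2), against 13.1% of genes tested, and Mylk2 was separated in the opposite direction (12.7% of genes). Adjusted p-values nonetheless passed for none of the 10 (2.51% of genes called), although 3 (Mylpf, Actn3 and Mybpc2) had an unadjusted p under 0.05 against 17.4% of genes, with Mybpc2 at a log2 change of 0.54 (adjusted p = 0.0883, limma) and Actn3 at 0.52 (0.136). Under the other settings these values ran from 0.21 to 0.54 for Mybpc2 and from 0.20 to 0.52 for Actn3. In active mice no member was separated or called (0.207% of genes called), and only Actn3 had an unadjusted p under 0.05 (12.3% of genes). Actn3 had there a log2 change of 0.43 (adjusted p = 0.338) and Mybpc2 of 0.28 (0.503). No member had non-overlapping genotypes at both activity levels (2.81% of genes higher and 2.55% lower). AM mouse 3 was the highest active mouse for 8 of the 10 members, the exceptions being Myl1 and Mylk4.

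The ratio between the light chain genes separated the genotypes. Myl1, which encodes the essential light chains of fast myosin from a pair of promoters that gene-level values do not separate, measured 4807, 7079 and 6300 in IW, 5425, 5298 and 5757 in IM, 6201, 5357 and 4823 in AW and 4356, 3831 and 5135 in AM mice. Its log2 change with genotype was -0.21 (95% interval -0.44 to 0.01, adjusted p = 0.256, limma), the only negative value among the members other than the kinases. The ratio of Myl1 to Mylpf reads was 0.804, 0.962 and 0.966 in IW and 0.879, 0.941 and 0.888 in AW mice. In myostatin-reduced mice it was 0.673, 0.678 and 0.706 (IM) and 0.613, 0.594 and 0.638 (AM). All 6 myostatin-reduced mice were therefore below all 6 wild-type mice, with means of 0.686 ± 0.0181 in IM and 0.911 ± 0.0925 in IW mice, and 0.615 ± 0.0223 in AM and 0.903 ± 0.0334 in AW mice (SD, n = 3). This ratio was singled out after its values were seen, so no test is given. A lower ratio to Mylpf without overlap was common, being found for 17.7% of genes and for 3 of the 9 other members (Myl1, Tnni2 and Myoz1). Of all 45 member pairs, 14 had a ratio that separated the genotypes. Of these, 6 were among the 9 pairs with Myl1, the most of any member, followed by Myoz1 with 5. The share over all gene pairs was not computed, so these counts do not show that Myl1 or the members are unusual.

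With the slow-fibre score described later as a covariate, Myl1 itself was called lower in myostatin-reduced mice (log2 change -0.35, adjusted p = 0.00425, limma), as it was after quantile normalization (-0.28, adjusted p = 0.0428). Myl1 lies on the same chromosome as the floxed gene, at chr1:66970869-66991978 of build mm9, 13.85 Mb from Mstn. Its nearest neighbour in the table, Lancl1, lies 55.11 kb away and was lower in myostatin-reduced mice by a log2 change of -1.18 (adjusted p = 1.29e-06). The neighbour on the other side, Acadl, at 61.02 kb, had -0.51 (adjusted p = 0.0534). Whether the position near Mstn had a part in the Myl1 values was not tested. None of the other 9 members lies on that chromosome: Mylpf, Tnni2, Tnnt3 and Mybpc2 are on chromosome 7, Tnnc2 and Mylk2 on 2, Mylk4 on 13, Myoz1 on 14 and Actn3 on 19.

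**Figure D3:**
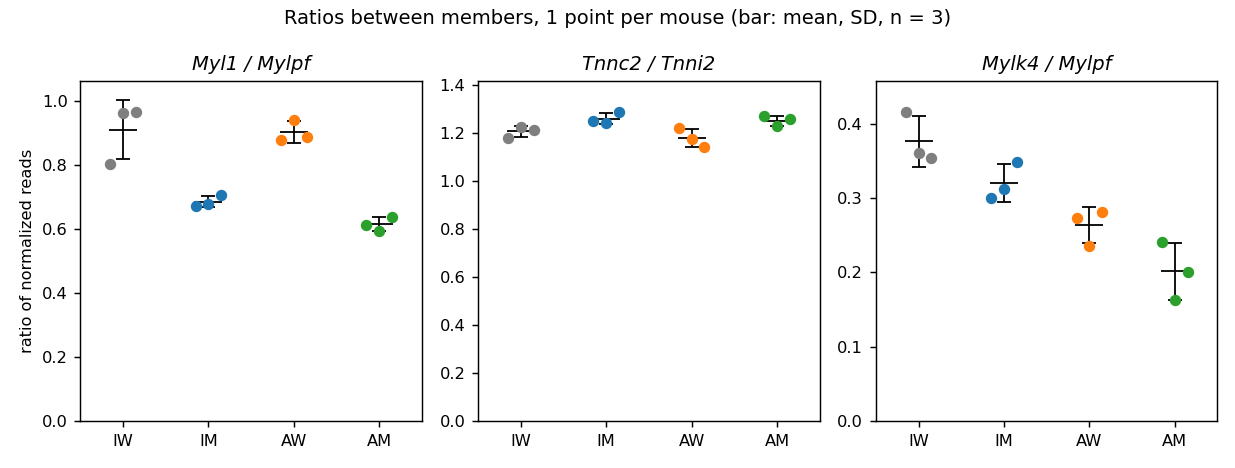
Ratio of normalized reads (y axis, from 0) for Myl1 to Mylpf, Tnnc2 to Tnni2 and Mylk4 to Mylpf in each mouse, with a bar for the mean and SD of 3 mice. The Myl1 ratio lies under 0.71 in the 6 myostatin-reduced mice and above 0.80 in the 6 wild-type mice, the Tnnc2 ratio is slightly higher in the myostatin-reduced mice, and the Mylk4 ratio is lower in active mice of each genotype.

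Troponin subunits, which assemble in equal numbers, had ratios of narrow range across the mice. Per kilobase, Tnnc2 was 2.14 to 2.29 times Tnni2 in the 6 wild-type mice and 2.30 to 2.41 times in the 6 myostatin-reduced mice, so this ratio also separated the genotypes without overlap, by a narrow margin. Genotypes were separated in 14 of the 45 member pairs, this one included. Tnnc2 was 0.850 to 0.969 times Tnnt3 and Tnni2 was 0.381 to 0.415 times Tnnt3. Across the 12 mice the log2 values of Tnnc2 and Tnni2 had a Pearson r of 0.975, and those of Actn3 and Mybpc2 an r of 0.984. The kinases were less tightly tied to each other, with a ratio of Mylk4 to Mylk2 reads between 1.08 and 2.09. Over the 45 member pairs r ran from 0.29 to 0.98 with a median of 0.733, and the median over a gene's 9 pairs was lowest for Myl1 (0.472), Mylk2 (0.587) and Mylk4 (0.664). These r are descriptions over 12 mice that share groups and scaling. Relative to Mylpf, 4 of the 9 other members were lower in active mice of both genotypes without overlap (Actn3, Mybpc2, Mylk2 and Mylk4), against 0.662% of genes tested. These are the members called for activity.

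Slow counterparts of 8 members were measured in the same mice. The slow troponins and light chains were scarce: of the reads of each pair, Tnnc1 made up 0.00264% to 0.981%, Tnni1 0.00206% to 0.848%, Tnnt1 0.00252% to 0.777%, Myl2 0.0113% to 2.96% and Myl3 0.0554% to 3.02%. Myoz2 made up 0.0908% to 4.04% of its pair with Myoz1. Actn2 and Mybpc1, which fast fibres also express, were far more abundant, at 2.23% to 17.7% and 6.71% to 34.9% of their pairs. Slow shares thus varied far more between mice than the fast genes did, Tnnc2 ranging from 9495 to 12763 normalized reads.

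Against activity, 2 of the 8 slow counterparts were higher in active mice (7.99% of all genes), both of them partners of members that were lower: Actn2 by a log2 change of 1.14 (adjusted p = 0.00517, limma) and Mybpc1 by 0.67 (adjusted p = 0.0313). Actn2 measured 891, 389 and 624 normalized reads in IW, 379, 356 and 304 in IM, 620, 1225 and 1111 in AW and 961, 1451 and 854 in AM mice. In these 2 of the 8 pairs the fast gene was called lower and its counterpart higher. The other 6 counterparts had larger but more variable log2 changes, from 1.52 for Myoz2 to 2.26 for Tnnt1, with adjusted p-values of 0.0883 to 0.220. None of the 8 was called for genotype across both activity levels, where Mybpc1 came nearest at -0.56 (adjusted p = 0.0975). In inactive mice alone Mybpc1 was called lower in myostatin-reduced mice (-1.14, adjusted p = 0.0433), against 1.13% of all genes.

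**Figure D4:**
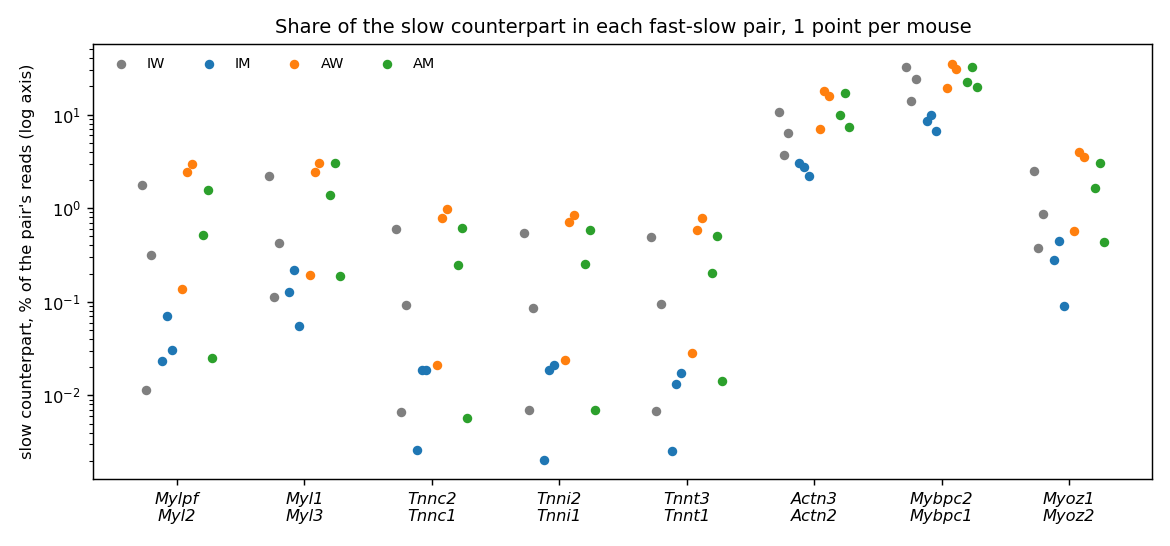
Share of the slow counterpart in the reads of each fast-slow pair (y axis, percent, log scale), with 1 point per mouse in the IW, IM, AW and AM groups. Troponin shares spread from about 0.002% to 0.98% within and across groups, and the IM mice have the lowest 3 shares of Actn2 and Mybpc1.

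The slow-fibre score, the mean log2 deviation of 10 slow-fibre genes (Myh7, Myl2, Myl3, Tnnc1, Tnni1, Tnnt1, Tpm3, Myoz2, Atp2a2 and Casq2) from their means over the mice, was 2.02, -2.09 and 0.08 in IW, -2.30, -1.43 and -1.81 in IM, -1.05, 2.38 and 2.56 in AW and 1.18, 2.14 and -1.67 in AM mice. Mice of 1 group thus differed widely, except IM mice. The summed level of these 10 genes, none at 0 in any mouse, was 82.7 to 1321 normalized reads in IW, 72.5 to 103 in IM, 141 to 1763 in AW and 109 to 1295 in AM mice. Its part in the member differences was not tested, but the values that move with it are given here.

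Over the 12 mice all 10 members had a negative r with the score, as did 56.4% of genes tested. For 7 of them r lay between -0.92 and -0.89 and passed a two-sided permutation test adjusted over all 7247 genes, against 8.14% of genes negative and past it. Mylpf, for example, had r = -0.908 and Spearman rho = -0.916 (permutation p = 0.00012 and 8e-05, adjusted 0.00966 and 0.0126). Myl1 (r = -0.630, rho = -0.580, permutation p = 0.0282 and 0.0524), Mylk4 (r = -0.652, rho = -0.678, 0.0231 and 0.0182) and Mylk2 (r = -0.592, rho = -0.490, 0.0448 and 0.108) did not pass, with adjusted permutation p-values for r of 0.112, 0.0996 and 0.148. Without AW mice 2 and 3, the mice farthest from the median score, r was -0.861 for Mylpf, -0.708 for Myl1, -0.534 for Mylk4 and -0.448 for Mylk2. With group means removed, r was -0.977 for Mylpf (exact permutation p = 0.00154) and -0.929 for Myl1 (exact permutation p = 0.00386), -0.601 for Mylk4 (0.133) and -0.543 for Mylk2 (0.231). All members except the kinases, 8 of 10, had an unadjusted exact p under 0.05, against 11.1% of genes negative and under it. Adjusted over all genes, no member passed and neither did any gene with a negative r (0%). Over all genes tested the median r with the score was -0.10, and 0.869% of genes were at or under the members' median of -0.893. Score and members come from the same libraries and scaling.

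With the score as a covariate, the same 4 members were called lower for activity, against 1.52% of all genes: Mylk4 at -0.59 (adjusted p = 0.0120, limma), Mylk2 at -0.36 (0.0454), Actn3 at -0.26 (0.0328) and Mybpc2 at -0.25 (0.0208). The values of Actn3 and Mybpc2 were 1.5 times or more smaller than without it, and those of Mylpf, Tnnc2, Tnni2 and Tnnt3 were 0.01, 0.04, 0.03 and 0.0003. For genotype, Actn3 (0.31, adjusted p = 0.0118) and Mybpc2 (0.27, adjusted p = 0.0116) remained called, where 4.43% of all genes were (2.43% higher). Endothelial markers also moved with activity, at 220 to 274 summed normalized reads in IW, 189 to 197 in IM, 219 to 376 in AW and 245 to 409 in AM mice, with 4 of 5 genes called higher (7.99% of all genes, both without the covariate). Of the adipocyte markers, 3 of 4 in the table, the summed level was 109 to 120 in IW, 81.4 to 96.4 in IM, 127 to 176 in AW and 113 to 186 in AM mice, nearly all of it Fabp4. Fabp4 was called higher (0.64, adjusted p = 0.00331, limma), while Adipoq (3.19 to 12.6 normalized reads over the 12 mice) and Plin1 (0.590 to 4.15) overlapped between active and inactive mice and were too low to be tested. The part of either list in the member differences was not tested.

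**Figure D5:**
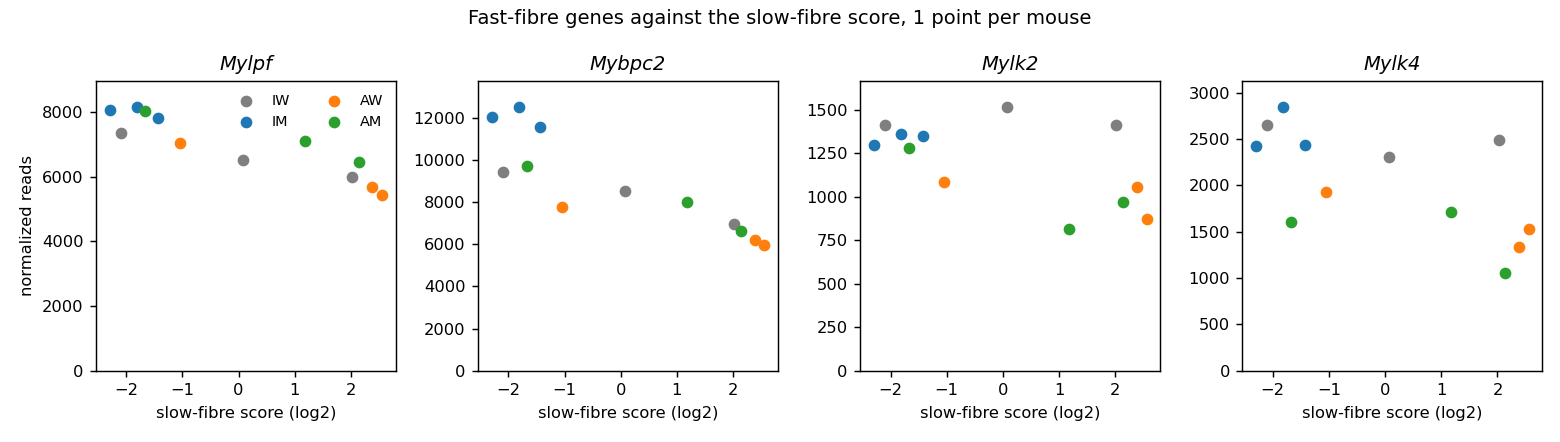
Normalized reads (y axis, from 0) of Mylpf, Mybpc2, Mylk2 and Mylk4 against the slow-fibre score (x axis, log2), with 1 point per mouse coloured by group. Mylpf and Mybpc2 are lower at higher scores (r = -0.908 and -0.902), with the 3 IM mice above all others for Mybpc2, and for Mylk2 and Mylk4 the 6 active mice lie under the 6 inactive mice.

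Genes of the light chain phosphorylation cycle other than the kinases did not follow them. Of the 10 tested in this list, Mylk2 and Mylk4 were the only 2 called for activity, both lower (6.51% of all genes). Mylk, the smooth-muscle kinase, had a log2 change of 0.16 (adjusted p = 0.570, limma). For genotype 1 of the 10 was called lower (2.21% of all genes), Ppp1cb, the catalytic subunit of myosin phosphatase, at -0.19 (adjusted p = 0.0276).

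Among 12 Z-disc partner genes, a list that includes Actn3, Myoz1 and Actn2, 2 were higher and 5 lower in active mice. Over all genes the shares were 7.99% and 6.51%, or 13.5% and 17.1% with a filter at a mean of 50. Lower ones besides Actn3 included Ppp3ca, a catalytic subunit of calcineurin (-0.37, adjusted p = 0.00435, limma), and Pdlim3, which binds alpha-actinin (-0.39, adjusted p = 0.0204). Genotype called 2 of the 12 higher (3.57% of all genes), Actn3 and Ldb3, another alpha-actinin partner (0.21, adjusted p = 0.0279).

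Of 11 other fast-fibre genes, 6 were lower and 2 higher in active mice, against 6.51% and 7.99% of all genes. With a filter at a mean of 50 those shares were 17.1% and 13.5%. Myh4, the heavy chain of the fastest fibres, was lower (-0.57, adjusted p = 0.0127, limma), whereas Myh1 (1.51, adjusted p = 0.00190) and Myh2 (2.04, adjusted p = 0.0251), the heavy chains of the less fast types, were higher. For genotype 1 of the 11 was called higher (3.57% of all genes), and Myh4 had a log2 change of 0.22 (adjusted p = 0.352).

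Of 11 transcription factor genes linked to fibre type, Mef2c and Mef2d among them, 3 were lower in active mice (6.51% of all genes). These were Sox6, a repressor of slow-fibre genes (-0.38, adjusted p = 0.0261, limma), Nfic (-0.26, adjusted p = 0.0384) and Tbx15 (-0.19, adjusted p = 0.0340). Tbx15 (0.26, adjusted p = 0.0175) and Nfix (0.35, adjusted p = 0.0418) were higher in myostatin-reduced mice (3.57% of all genes). None of the 11 was called higher with activity or lower with genotype.

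The genes whose log2 values tracked the members most closely were sought among the 2546 genes whose mean reached 50 normalized reads, in 12 mice and with no test, since they were picked for this likeness. For the mean of the members they were Man2a2 (r = 0.984), Pvalb (0.982) and Myh4 (0.977). Actn3 and Mybpc2 shared the same nearest gene, Pygm (r = 0.981 and 0.979). The kinases had others: Clcn1 (r = 0.973) for Mylk4 and Usp19 (r = 0.914) for Mylk2. The nearest gene to Myl1 was Derl1 (r = 0.910), to Mylpf Ppm1j (0.975), to Myoz1 Kcmf1 (0.984), to Tnnt3 Zfp358 (0.966), to Tnnc2 Sar1b (0.962) and to Tnni2 Drap1 (0.947).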

How the data were processed

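Polyadenylated RNA of 12 triceps brachii muscles was sequenced on a Genome Analyzer IIx as 65-base single-end reads after TruSeq library preparation. The authors ran CASAVA against build mm9 (version not given in the sources used here), summed reads over RefSeq exons and deposited a signal value per gene, the read count scaled so that column means without the highest and lowest 5% were equal. Strand use is not given in the sources used here. Values under 5 were whole multiples of a step in 88.6% to 91.2% of genes (tolerance 0.0051) and between 20 and 50 in 66.0% to 69.8%, so no count test was run. A value of 3 reads corresponded to 0.231 to 0.316 normalized reads.

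Values were analysed as log2(value + 1) for the 7247 of 10187 genes with a mean of at least 10 with limma 3.58.1 in R 4.3.3 (4 group means, moderated with trend, Benjamini-Hochberg over all genes, two-sided). All 10 members passed this filter. Fold changes are on this log2 scale. The script was tested on simulated data. Correlations used 100000 permutations, or all 1296 arrangements within groups, with p-values adjusted over all genes tested rather than over the members alone, a choice made after seeing the data. Positions and exon lengths came from a GENCODE annotation of mm9. Of the 65-base windows of the members' transcripts, 0 matched another gene in 9 members and 6 of 5623 in Mylk4. No pair of columns was identical. Alternatives were another pseudocount (0.5 and 5), other filters, rescaling to equal totals or by median ratio, quantile normalization, sample weights, robust moderation, a replicate block, the slow-fibre score as a covariate, fits to the 6 mice of a contrast, and leaving out each mouse. Members and gene lists were chosen with earlier results of these data known. Named genes are the members, genes of the lists, and, for Myl1, its table neighbours and Mstn. The same replicate numbers in the labels name different mice, and the samples were treated as unpaired. The paper states that muscles came from myostatin-reduced and control mice with matched running, but the labels do not say which mice were matched. Deviations of same-numbered mice correlated over 0.1 in all 3 pairs between IM and AM only, and the blocked values of that contrast are given.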

Additional observations from a re-analysis of the deposited data

How the results depend on the processing

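Of 434 values recomputed under other settings, 396 kept their direction and side of the threshold, and of 456 recomputed without 1 mouse, 414 did. Mylk2 and Mylk4 stayed called for activity in all of them. The number of members called for genotype (2) was 1 without a filter on low values (4.22% of all genes called) and 0 with a replicate block (5.02%), that for running in wild-type mice (0) was 3 with sample weights (5.73%), and that for running in myostatin-reduced mice (2) was 1 with the block (Mylk4; 8.67%) and 1 with the slow-fibre covariate (Mybpc2; 2.55%). For genotype in inactive mice (0) it was 1 with sample weights (4.61%), 1 with the covariate (1.70%) and 2 in a fit to those 6 mice (2.95%), and in active mice (0) it was 1 with the covariate (0.400%). Leaving out 1 mouse gave 2 to 5 called for activity (7.62% to 20.5% of all genes), 0 to 3 for genotype (2.48% to 7.99%), 0 to 1 for running in wild-type (0% to 2.73%) and 0 to 4 in myostatin-reduced mice (1.17% to 15.2%), and 0 for the interaction and for genotype at either activity level. Uncalled members became called for activity without IW mouse 1 (Myl1) and without AW mouse 1 or AM mouse 3 (Myoz1), and for genotype without AW mouse 1 (Mylpf). Sample weights also gave a call to Myoz1 for activity (-0.23, adjusted p = 0.0293, limma) and to Mylpf for genotype (0.29, adjusted p = 0.0323). Groups left with 2 mice shared the pooled spread.

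Uncalled log2 changes that changed sign were, for activity, Mylpf with quantile normalization (0.00095) and the covariate (0.00665), Tnnc2 with equal totals (0.0155), quantile normalization (0.126) and the covariate (0.0357), Tnni2 with the same 3 settings (0.0368, 0.131 and 0.0325) and Tnnt3 with the covariate (0.000285). For genotype they were Tnnc2 (-0.0173) and Tnni2 (-0.124) with quantile normalization and Myoz1 with the covariate (-0.00434), and the Mylk2 interaction became -0.0162 with quantile normalization. Tnnt3 was 0 there by construction, having rank 5 in every mouse. The other members also took values set by their rank in that setting. Without 1 mouse the genotype changes ran from -0.142 to 0.0202 for Mylk2 and -0.117 to 0.0586 for Mylk4, and the Mylk2 interaction from -0.0524 to 0.271. The cause of these changes was not tested.

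Same-numbered mice of different groups had correlations of their deviations between -0.60 and 0.48, and only the IM and AM groups had all 3 over 0.1 (0.171 to 0.322). By the paper, running was matched between myostatin-reduced and control mice, but the labels do not name the matches. For AW and AM mice the correlations were 0.098, 0.484 and -0.325. Whether the numbers pair mice, in the contrast of IM and AM or in any other, cannot be told from these values. In the contrast of IM and AM mice the replicate block left 1 of the 2 calls (Mylk4). The block left the 4 activity calls in place. Counting error was at most 1.01% for any member and the spread between mice of a group 1.34% to 24.3%.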
